A study of Solanum lycopersicum with 12 samples.

Results

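The 200 genes described here had higher levels in every library of tomato root sections without a primordium or with an early lateral root primordium than in any library of sections in which the primordium was passing or had passed the endodermis. They were chosen by their measured levels, as log2(CPM + 1), where CPM is a gene's count scaled to the total of its library. For each gene the lowest of the 6 libraries of control, stage 1 and stage 2 was compared with the highest of the 6 libraries of stages 3, 4 and 5, and the difference is called the gap below. A gap above 0.3 was found for 389 of the 34027 genes in the table. Of these, 348 also had stage 1 and stage 2 means that lay less than 1 log2 unit from the control mean, and the 200 with the widest gaps were kept. The mirrored rule, for genes that rose between the same libraries, was met by 884 genes.

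All libraries came from seedlings of the tomato cultivar M82 grown on agar plates and carrying the reporter DR5::VENUSx3-NLS, a nuclear fluorescent protein under a synthetic auxin-responsive promoter. Controls were pieces of the primary root's differentiation zone without lateral roots. The other sections held a lateral root at stage 1 (a pair of cells with DR5 signal), stage 2 (the first periclinal division), stage 3 (passing the endodermis), stage 4 (midway through the cortex) or stage 5 (at the epidermis but not emerged). Each of the 6 groups had 2 libraries. Every group carried the reporter, and the labels give neither the age of the seedlings nor the number of sections pooled. They also do not say whether duplicates came from separate plants, so p-values measure the spread between these libraries, which may be technical.

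A lateral root arises from cells deep in the primary root, next to the vascular cylinder, and has to grow outwards through the endodermis, the cortex and the epidermis. The endodermis carries the Casparian strip, which seals the path of water and solutes between cells, and, with age, suberin. Endodermal cells above a primordium are known, from work in Arabidopsis, to lose volume so that the primordium can pass. Each section with a primordium contained this overlying tissue and the vascular tissue as well. In such bulk samples fewer cells of a type and less RNA per cell cannot be told apart. Levels in CPM are shares of a library, so a fall in CPM need not be a fall in amount.

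Library totals ran from 1948150 counts in stage 5 replicate 2 to 6196286 in stage 1 replicate 1. A count of 3, used as the detection floor, was worth 1.54 CPM in the shallowest library and 0.484 CPM in the deepest. Libraries of a pair differed by more than counting noise (chi-square per degree of freedom of at least 6.2). The locus tags were not paired with gene names in the tables used here, and 0 of them matched the reference annotation. The genes are therefore given by tag, without roles, and neither markers of root cell types nor gene classes could be looked up among them. The number after Solyc in a tag is the chromosome.

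Together the 200 genes held 5.34% and 5.38% of all counts in the control libraries. Their share was 6.05% and 5.99% at stage 1 and 5.42% and 5.57% at stage 2. It was 2.8% and 2.84% at stage 3, 1.46% and 2.00% at stage 4, with 0.914% and 1.29% left by stage 5. The fall from stage 2 to stage 3 is fixed by the choice of genes. The order of stages 3, 4 and 5 is not, because the rule treats the 6 late libraries alike, although it did use their levels.

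**Figure D1:**
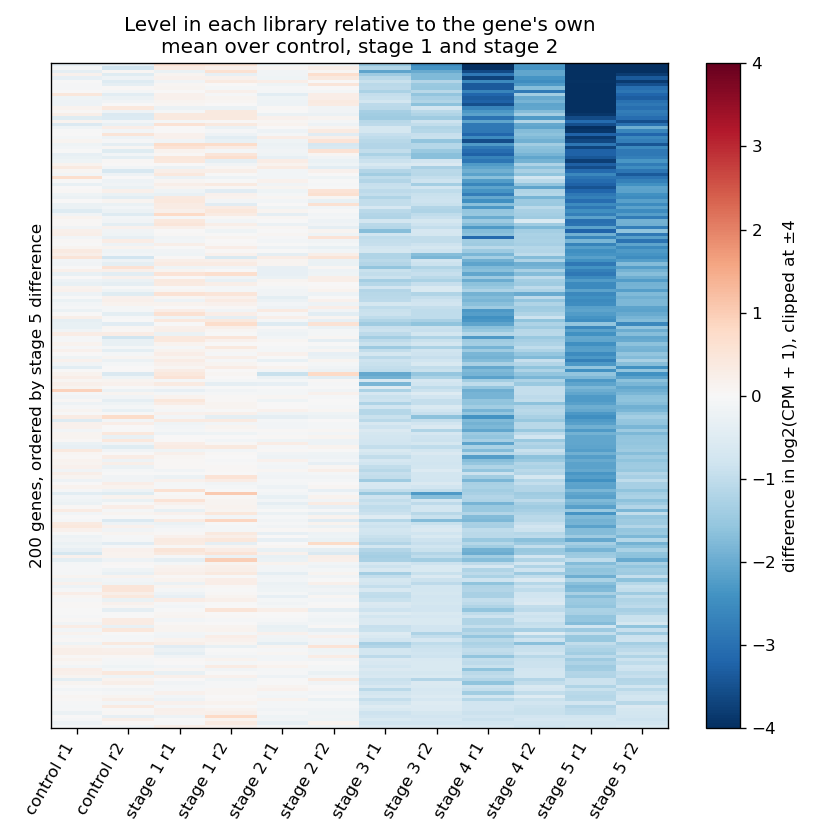
Each row is a gene of the 200 and each column a library (r1 and r2 are the replicates), with colour giving the difference in log2(CPM + 1) from the gene's own mean over control, stage 1 and stage 2. Rows are ordered by the stage 5 difference. Blue deepens from stage 3 to stage 5 in most rows and is darker in replicate 1 than in replicate 2 at stages 4 and 5.

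Measured against each gene's own mean over the 6 early libraries, the median difference in log2(CPM + 1) lay between −0.0906 and 0.0718 in those libraries. It was −0.938 and −0.849 in the stage 3 libraries, −1.60 and −1.21 at stage 4, then −2.15 and −1.70 at stage 5. The 3 late stages were thus ordered without overlap of their duplicates. Across the 200 genes, the median step in stage mean was −0.83 log2 units from stage 2 to 3, −0.49 from stage 3 to 4 and −0.51 from stage 4 to 5. The step into stage 3, which the rule favours, was the largest of the 3 falls in 135 genes, that into stage 4 in 31 and that into stage 5 in 34.

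**Figure D2:**
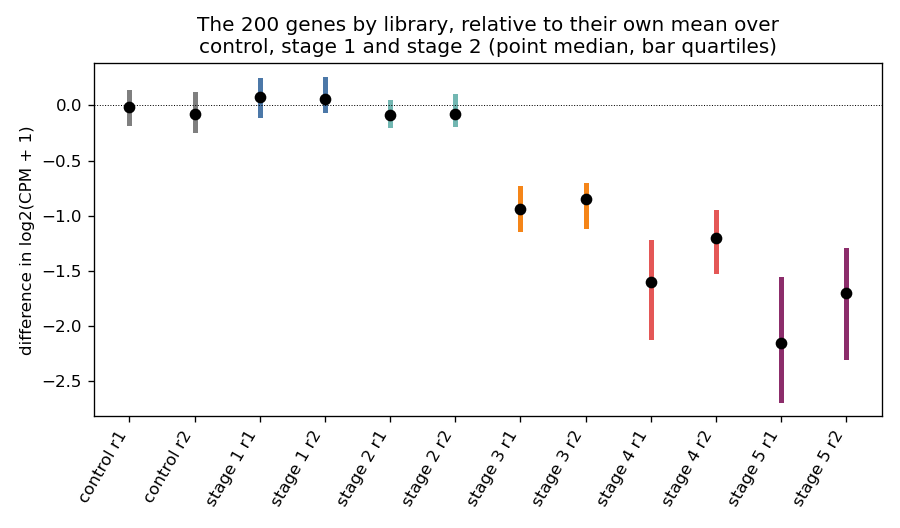
Points give the median over the 200 genes of the difference in log2(CPM + 1) from each gene's mean over control, stage 1 and stage 2, and bars span the quartiles. Medians stay near 0 up to stage 2, are −0.938 and −0.849 at stage 3, and reach −2.15 and −1.70 at stage 5.

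The widest gap belonged to Solyc10g083880, at 1.65 log2 units. Its levels were 1644 and 2214 CPM in the control, 1749.9 and 3179.7 at stage 1, then 1909 and 2209.8 at stage 2. They were 483 and 522 CPM at stage 3, 169.7 and 502 at stage 4, then 80.8 and 103 at stage 5. The sharpest drop was therefore into stage 3, with a wide spread between the stage 4 duplicates and a further drop by stage 5.

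Next came Solyc09g065410, with 95.6 and 96.5 CPM in the control, 184 and 177 at stage 1, then 110.2 and 105 at stage 2. Levels of 40.8 and 20.1 CPM at stage 3 were followed by 4.46 and 23.7 at stage 4, with 4.46 and 2.05 left at stage 5. This gene was highest at stage 1, and it was left with 2.55% of its early mean at stage 5.

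Solyc09g008320 was flat before the drop, between 1218 and 1498 CPM in the 6 early libraries. It stood at 539 and 595 CPM at stage 3, 208 and 181 at stage 4, then 56.5 and 173 at stage 5. Solyc06g054030 was flat too, between 53.5 and 61.3 CPM in the early libraries, and had 26.9 and 19.4 at stage 3, 4.65 and 16.8 at stage 4, then 1.49 and 6.16 at stage 5. In both genes all 4 libraries of stages 4 and 5 lay below both stage 3 libraries.

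Weak genes were among those with the widest gaps. Solyc09g010720 was at 2.82 to 5.16 CPM in the early libraries, 0.827 and 0.958 at stage 3, and had 0 counts in both stage 5 libraries, which at their depth allows levels up to 0.744 and 1.54 CPM. Solyc08g068280 went from 14 to 33 CPM in the early libraries to 6.83 and 5.17 at stage 3, and had 0 and 1 counts at stage 5. Because these stage 5 counts lie under the floor, no fold between stages 3 and 5 is given for either gene.

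Other genes among the 12 widest gaps were Solyc08g078550, Solyc04g081140 and Solyc01g096140, with early means of 25.3, 19.8 and 26.8 CPM and with 8.5%, 8.84% and 6.68% of these left at stage 5. Solyc01g099160 had 319 and 307 CPM in the control but 588 and 592 at stage 1, then 169 and 167 at stage 3 and 37.2 and 53.9 at stage 5. Solyc07g056440 also had its highest values at stage 1 (309 and 304 CPM), and kept 39.9 and 68.8 CPM at stage 5, or 23% of its early mean. Solyc11g069700 was instead highest in the control, at 137 and 208 CPM, and had 25.5 and 29.5 CPM at stage 5.

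**Figure D3:**
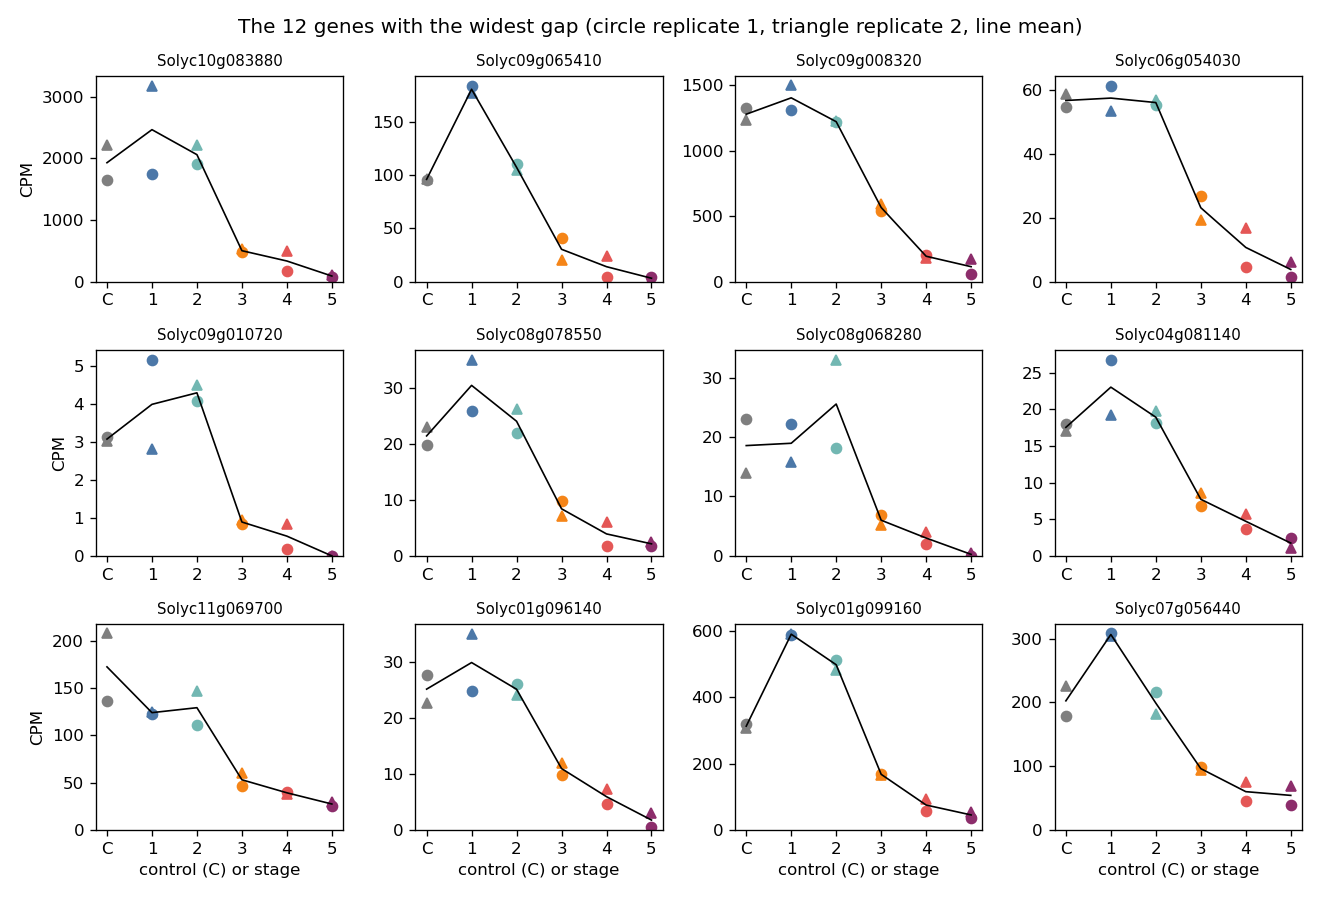
CPM of the 12 genes with the widest gaps in the control (C) and at stages 1 to 5, each panel with its own axis from 0. Circles are replicate 1, triangles replicate 2 and the line joins stage means. All 12 drop into stage 3, and Solyc10g083880 ends at 80.8 and 103 CPM.

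Levels in the 200 genes spanned a wide range, with early means from 0.708 to 4654 CPM and a median of 67.9 CPM. Early means exceeded 1000 CPM in 15 genes and lay under 10 CPM in 18. The 6 strongest genes held 37.5% of the summed early CPM of all 200.

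The strongest was Solyc08g081190, at 4623 and 4054 CPM in the control, 4862 and 4574 at stage 1, then 5252 and 4557 at stage 2. It had 2045 and 2598 CPM at stage 3, 985 and 2184 at stage 4, with 551 and 711 left at stage 5. The stage 4 duplicates differed widely, and replicate 2 lay within the range of stage 3. Solyc10g006480 was highest in the control (3959 and 5092 CPM) and declined in smaller steps, to 2220.4 and 2088 at stage 3 and 894 and 1293 at stage 5.

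Levels of Solyc11g069430 were 3539.8 and 2931 CPM in the control, 1481 and 1779.9 at stage 3, 738 and 1384 at stage 4, then 376 and 276 at stage 5. Solyc10g009150 had between 2263 and 2960.0 CPM in the early libraries. It was at 1459.8 and 1611 CPM at stage 3, at 635 in each stage 4 library and at 249 and 633 at stage 5, so that 1 of the stage 5 libraries lay close to the stage 4 level.

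Of the 6 strongest genes, Solyc08g081190, Solyc04g014320 and Solyc07g056470 lay near other genes of the 200 in tag order. Solyc04g014320 had 1701 and 1101 CPM at stage 3 and 149 and 363 at stage 5. Its neighbour Solyc04g014330 had 1098 and 718 CPM at stage 3 and 118 and 311 at stage 5, and Solyc04g014290, placed 3 tags before Solyc04g014320 in the table, had 527 and 400.3 and then 59.3 and 97. Estimated counts need not be whole where reads match more than 1 gene equally well. Counts of Solyc04g014320 and Solyc04g014330 both lay more than 0.05 from a whole number in 10 libraries, and in 8 of these their sum was within 0.05 of one, so their values may not be independent. Solyc04g014290 was that far from a whole number in 1 library. Solyc07g056470 had 1850.2 and 2238 CPM in the control, 4111 and 3640.1 at stage 1, 1323 and 1399 at stage 3, then 239 and 345 at stage 5. Solyc07g056440, with its highest values also at stage 1, lies 3 tags before it.

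Whether the genes went on falling after stage 3 was asked with the contrast of stage 5 with stage 3. The rule used the levels of both stages but takes each late library in the same way, so it does not prefer a fall between them to a rise. Both stages had to lie below the lowest early library, so the rule capped the levels of both stages alike. The fit also takes its spread from all libraries, including the early ones that the rule had used. The counts, and the p-values of single genes given below, are therefore a description of the chosen genes. The difference of these counts from those over all tested genes was not itself tested. Lower levels at stage 5 were called for 113 of the 196 genes that passed the filter on low counts, and higher levels for 0 (edgeR's quasi-likelihood test, Benjamini-Hochberg adjusted over 18357 tested genes). Over all tested genes 10% were called lower in this contrast. The median log2 change of the 196 genes was −1.06, against −0.01 over all tested genes, and their quartiles were −1.68 and −0.61. With the 4 tested genes that had 0 counts in both stage 5 libraries set to the bound that the floor allows, the median was −1.03. The 4 genes that were not tested had early means of 0.708 to 1.29 CPM.

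Fitted changes below 0 numbered 191 of 196, beside 50.5% over all tested genes. Both stage 5 libraries lay below both stage 3 libraries in 174 of the 196, beside 34.8% over the whole tested set. A called fall of more than 2-fold was found for 91 genes, where 8.12% of all tested genes had one. The number called depended on single libraries: it was 64 of 199 tested without stage 3 replicate 1 (5.15% over all tested genes) and 43 of 197 without stage 3 replicate 2 (2.18% over all). It was 31 of 199 without stage 5 replicate 1 (3.08% over all) and 120 of 199 without stage 5 replicate 2 (8.9% over all). When only the 4 libraries compared entered the filter and the fit, 186 of the 200 genes passed and 74 were called, beside 7.1% over all. The filter on all 12 libraries therefore kept 10 more of the genes, which are high in libraries outside this contrast. With the reported fit included, 24 genes were called under all 11 settings, as were 1.21% of all tested genes. A gene that a setting did not test was counted as not called there. With 10 counts required in every library, only 154 of the 200 genes were tested. The median log2 change ranged from −1.27 to −0.82 over the 11 settings.

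**Figure D4:**
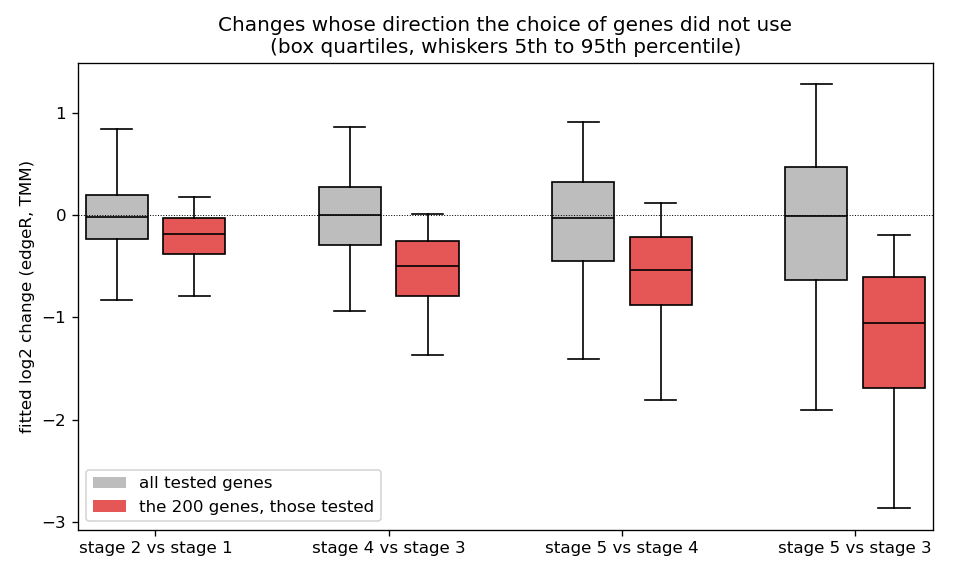
Boxes show the fitted log2 changes of all 18357 tested genes (grey) and of the 196 tested genes among the 200 (red) for 4 contrasts. Boxes span the quartiles with the median as a line, and whiskers the 5th to 95th percentile. The red medians lie below 0 in each contrast and furthest, at −1.06, for stage 5 against stage 3.

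The smallest adjusted p-value among the 196 genes belonged to Solyc09g098620. It had 64.5 and 45.4 CPM in the control, 34.1 and 28 at stage 3, 10.3 and 10.7 at stage 4, then 3.22 and 3.59 at stage 5. The duplicates of stages 3, 4 and 5 did not overlap, and the log2 change from stage 3 to 5 was −3.11 ± 0.308 (SE; adjusted p = 0.000671, edgeR). Its gap was narrow, at rank 190 of 200, so the rule had placed it near the end of the list.

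Solyc11g069430, described above among the strongest genes, changed by −2.23 ± 0.272 (SE; adjusted p = 0.00168, edgeR). For Solyc06g066830 the levels were 544 and 675 CPM at stage 3, 183 and 272 at stage 4, then 69.4 and 141 at stage 5, and the change from stage 3 to 5 was −2.47 ± 0.307 log2 units (SE; adjusted p = 0.00181, edgeR). Solyc11g007200 went from 769 and 776 CPM at stage 3 through 240.4 and 494 at stage 4 to 119.5 and 168 at stage 5, which is −2.35 ± 0.297 log2 units (SE; adjusted p = 0.00185, edgeR). Solyc01g095700 had 119 and 108 CPM at stage 3, 69.6 and 85.1 at stage 4, then 34.2 and 39.5 at stage 5 (log2 change −1.55 ± 0.205, SE; adjusted p = 0.00214, edgeR). These 5 genes were called lower at stage 5 in each alternative that tested them. Among the 6 strongest genes the call was lost for Solyc04g014320 without stage 5 replicate 1 and for Solyc10g006480 under 4 alternatives, and was kept for the other four.

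Of the 12 genes with the widest gaps, 10 were called lower at stage 5 than at stage 3, beside 10% over all tested genes. Solyc10g083880 changed by −2.37 ± 0.426 log2 units (SE; adjusted p = 0.00568, edgeR), a call that was lost without stage 5 replicate 1 (log2 change −2.22, adjusted p = 0.0506). Solyc01g099160 changed by −1.82 ± 0.24 (SE; adjusted p = 0.00214, edgeR) and Solyc09g008320 by −2.25 ± 0.366 (SE; adjusted p = 0.00398, edgeR), and both were called under every setting. The other seven calls each failed under some alternative. Solyc01g096140 and Solyc08g068280 lost theirs without stage 5 replicate 1, and Solyc06g054030 without that library or stage 3 replicate 1. Solyc04g081140 lost its call without stage 3 replicate 2 and in the fit of only the 4 libraries compared. Solyc09g065410 lost it without stage 3 replicate 1 or either stage 5 library. Solyc08g078550 lost it when any of the 4 libraries compared was left out, as did Solyc11g069700, which was called in only 4 of 10 alternatives. The exceptions among the 12 were Solyc09g010720 (adjusted p = 0.0684), which was near the floor, and Solyc07g056440, whose log2 change was −0.77 ± 0.288 (SE; adjusted p = 0.0868, edgeR) and which was called without stage 5 replicate 2 and with no filter.

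The contrast of stage 4 with stage 3 and that of stage 5 with stage 4 share the stage 4 libraries, and each had fewer calls. For stage 4 against stage 3, 1 of the 196 genes was called lower, with 0.0327% of all tested genes called lower. This was Solyc09g098620 (log2 change −1.54 ± 0.243, SE; adjusted p = 0.044, edgeR). Without stage 4 replicate 2, edgeR called 7 of 197 lower, against 0.162% of all. It called 0 without stage 3 replicate 1, stage 3 replicate 2 or stage 4 replicate 1, against 0.0103%, 0.0% and 0.0% of all. In the same order, the median log2 change of the chosen genes was −0.51, −0.47 and −0.35. Over all tested genes it was 0, 0.016 and −0.008. Without stage 4 replicate 2 the median was −0.73 for the chosen genes and −0.026 over all. Before adjustment, with all libraries, 79 genes had p under 0.05 and were lower, beside 5.95% over all tested genes. DESeq2 called 12 of the 196 genes lower, against 0.534% of all. Fitted changes below 0 numbered 185 of 196, against 49.7%, with a median log2 change of −0.50, and both stage 4 libraries lay below both stage 3 libraries for 143, against 25.5%.

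For stage 5 against stage 4, edgeR called 0 of the 196 genes and 0.0% of all tested genes. Unadjusted p-values under 0.05 with a lower level were found for 77 of them, beside 10.3% over all tested genes, and DESeq2 called 20 lower, against 2.03%. The median log2 change was −0.53, with 176 of 196 fitted changes below 0, against 51.8%. Both stage 5 libraries lay below both stage 4 libraries in 89 genes, against 27.6%. The size of the fall depended on single libraries. The median log2 change was −0.24 without stage 4 replicate 2 and −0.34 without stage 5 replicate 1, beside 0 and −0.048 over all. It was −0.70 without stage 4 replicate 1 and −0.80 without stage 5 replicate 2, beside 0 and −0.045. Without stage 4 replicate 1, edgeR called 8 of 197 lower, against 0.455% of all.

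Stage means declined in order from stage 3 through stage 4 to stage 5 in 174 of the 200 genes. The lowest stage mean was at stage 5 in 182 genes, at stage 4 in 15 and at stage 3 in 3. The highest of the 6 late libraries, which set the gap, was a stage 3 library in 181 genes. These orders were not counted over all tested genes, so they are not shown to be particular to the 200.

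The amount left at stage 5 varied between the genes. Stage 5 means were a median of 24.3% of the early mean, with quartiles of 13% and 32.4%, after medians of 51.3% at stage 3 and 35.7% at stage 4. For the 163 genes with an early mean of at least 20 CPM, the range at stage 5 was 1.22% to 63.4%. In 35 of the 200 genes less than 10% was left, and 13 of these had both stage 5 libraries at or under 3 counts. In 10 genes 50% or more was left.

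The gene with most left, Solyc04g014490, had close levels at stages 3, 4 and 5. It had 660.0 and 646 CPM in the control, 813 and 775 at stage 1, and 652 and 629.9 at stage 2. Both stage 3 libraries were close together at 460.0 and 460.1 CPM, stage 4 had 444 and 403, and stage 5 had 427 and 455. Its log2 change from stage 3 to 5 was 0.02 ± 0.161 (SE), with an adjusted p of 0.943 (edgeR), and its sign changed under 3 of 10 alternatives. The gene is named here because of this value. Genes called lower between stages 3 and 5 had a median early mean of 114 CPM and the 83 tested genes that were not called a median of 46.6 CPM, so the calls were made more in the stronger genes. The part of depth in this difference was not tested.

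**Figure D5:**
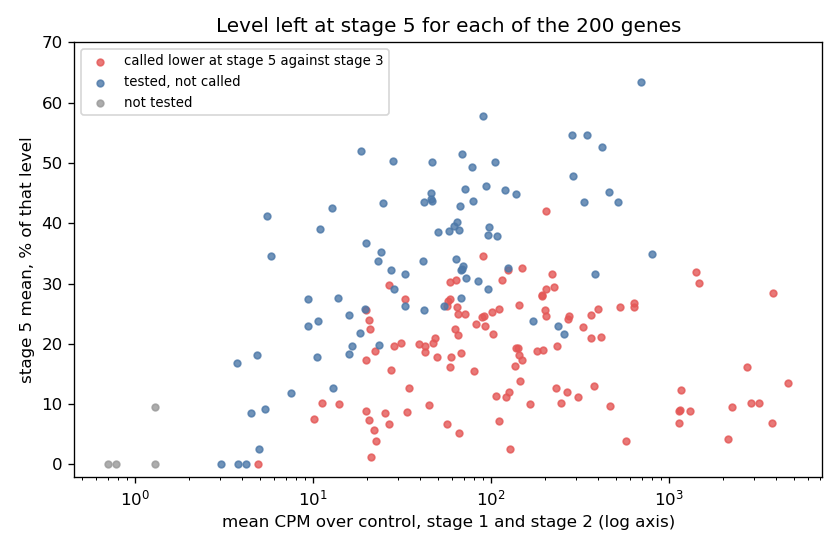
Each point is a gene of the 200, with its mean CPM over control, stage 1 and stage 2 on a log axis and its stage 5 mean as a percentage of that level. Red genes were called lower at stage 5 than at stage 3, blue genes were tested and not called, and grey genes were not tested. The quartiles of the percentage left are 13% and 32.4%, and 10 points lie at 50% or more.

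At stages 4 and 5 the duplicates differed in these genes. The level was higher in replicate 2 than in replicate 1 for 103 of the 196 genes at stage 3, with a median log2 difference of 0.01. At stage 4 replicate 2 was higher for 165 genes, with a median of 0.36, and at stage 5 for 153 genes, with a median of 0.51. Over all tested genes the share that was higher in replicate 2 was 49.9% at stage 4 and 48.9% at stage 5. The replicate 1 libraries of stages 4 and 5 were therefore the lower ones for most of these genes, but not for most genes in the table. Stage 5 replicate 2 was also the shallowest library. The labels do not record how finely a section was staged, and a difference in stage between duplicates was not tested.

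Among the early groups the rule kept the stage 1 and stage 2 means within 1 log2 unit of the control and used all 6 libraries, so the size of changes there was limited by the choice of genes, and the values below are a description. Stage 1 had the highest mean in 106 genes, the control in 59 and stage 2 in 35, and this was not counted over all tested genes. In stage 2 against stage 1, the fitted change was below 0 in 158 of the 196 genes, beside 52.5% over the tested set, with a median of −0.19 log2 units against −0.02. Against the control, the median fitted change was 0.24 at stage 1 and 0.01 at stage 2, beside medians of 0.14 and 0.10 over all tested genes, and no test is given for any of these contrasts because the rule used them.

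The narrowest gaps that were kept were those of Solyc02g078570, Solyc01g081200 and Solyc05g007610, all at about 0.39. Solyc05g007610, the last of the 200, had 19 to 29.2 CPM in the early libraries, 14.3 and 13.6 at stage 3 and 8.68 and 12.8 at stage 5. Just outside were Solyc04g005860, Solyc07g056500 and Solyc12g005570, with gaps of 0.392, 0.392 and 0.391. Solyc04g005860 had 154 to 192 CPM in the early libraries, 117 and 113 at stage 3, then 66.2 and 97 at stage 5. The limit therefore falls within a continuous range of gaps. Below the first 200 ranks, 147 tested genes met the rule. Of these, 59 (40.1%) were called lower at stage 5 than at stage 3 and 0 higher, with a median log2 change of −0.69. Over all tested genes 10% were called lower, and the median was −0.01.

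Which genes made the list depended on single libraries. The lowest early library was most often control replicate 2, in 52 of the 200 genes, and the highest late library was stage 3 replicate 2 in 109. Without control replicate 2, 749 genes met the rule in place of 348 and only 70 of the 200 stayed among the first 200, although 197 still met the rule. Without stage 3 replicate 2, 702 genes met it, and 114 of the 200 stayed among the first 200.

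By their tags the 200 genes lay on all 12 chromosomes, with 31 on chromosome 1, 25 on chromosome 3, 21 on chromosome 10 and 8 on chromosome 7. The 196 tested ones made up between 0.594% (chromosome 7) and 1.67% (chromosome 10) of the tested genes of a chromosome. Directly adjacent tags in the table were found for 3 pairs, namely Solyc04g014320 with Solyc04g014330, Solyc04g082050 with Solyc04g082060, and Solyc08g081180 with Solyc08g081190. The last pair differed in level, since Solyc08g081180 had 38.6 to 45.5 CPM in the early libraries where Solyc08g081190 had at least 4054. Counts more than 0.05 from a whole number in any library were found in 23 of the 200 genes, beside 12.1% over the tested set.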

How the data were processed

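Per the labels' protocols, RNA was sequenced from the 3′ end of transcripts (QuantSeq). Values in the deposited table are estimated counts for each gene, not normalised by the authors as far as they show: 3.57% of values lay more than 0.05 from a whole number and column totals differed. Salmon 1.3.0 and DESeq2 are named in the submitters' processing notes, without their role. The genome build, the annotation and the use of strand were not given in the sources used here.

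Columns were matched to samples by name. CPM values and the rule used column totals and a pseudocount of 1. For tests, estimated counts were rounded, filtered with filterByExpr by stage (18357 genes), scaled by TMM and fitted in a single model of 6 groups with edgeR 4.0.16 (limma 3.58.1, R 4.3.3). Fits had 6 residual degrees of freedom. Genes with a Benjamini-Hochberg adjusted p under 0.05 were called. Standard errors are the log2 change divided by the square root of F. On simulated counts for stage 5 against stage 3, 81.5% of 200 genes changed by 1.5 log2 units were recovered, with 11 false calls among 17930 genes. This rate is for a change of that size only, and the median log2 change of the 196 tested genes was −1.06. The changed genes were drawn only from genes above a set expected count, and each gene's simulated spread was set by its level alone. The rate therefore does not cover genes with few counts.

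Named genes are the 12 widest gaps, the 6 highest early means, up to 5 calls per direction and contrast, and the 3 genes on either side of the limit. The genes adjacent in tag order, and Solyc04g014490, were added after their values were seen. The genes and lists were chosen with earlier results of these data known. Calls among the 200 genes for stage 2 against stage 1 had been planned and are not reported, because the rule limits that contrast. Gene classes, cell type markers and promoter motifs had been planned and were not run, because the tags carried no names or sequences here. Alternatives were the replicate number as a block, DESeq2 1.42.0 size factors or test, other filters, fits of only the 4 libraries compared, and each library left out.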

Additional observations from a re-analysis of the deposited data

How the results depend on the processing

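For stage 5 against stage 3, the median log2 change and 30 of the 31 named genes recomputed kept their sign; Solyc04g014490 (0.02) changed to −0.013 with no filter, −0.0065 without stage 3 replicate 2 and −0.021 without stage 5 replicate 2, with 0.049 as the highest value with a library left out and 0.08 (DESeq2 size factors) as the highest of all alternatives. For stage 5 against stage 3, leaving out single libraries gave 500 to 2769 called genes (3119 with all) and 31 to 120 of the 200 genes (113 with all), with a median log2 change of −1.27 to −0.82; only the 4 libraries compared gave 1973 and 74. With the replicate block the same contrast gave 3201 and 112, and all 112 were among the 113. In each such pair the first number counts all genes called in either direction and the second those among the 200. The filter changed how many were tested. With no filter it was 25900 genes and all of the 200, and with 10 counts in every library 11774 genes and 154 of the 200. For stage 4 against stage 3 (16 and 1), the replicate block gave 42 genes, DESeq2 174 and 12, no filter 757 and 34, 10 counts in every library 3 and 0, and leaving out libraries 2 to 50 and 0 to 7. For stage 5 against stage 4 (0 and 0), DESeq2 gave 553 and 20, no filter 1430 and 42, 10 counts in every library 39 and 4, and leaving out libraries 0 to 94 and 0 to 8. For stage 2 against stage 1, over all tested genes (51), the replicate block gave 98, DESeq2 153, no filter 527, 10 counts in every library 12, only the 4 libraries compared 140, and leaving out libraries 6 to 26. The rule was met by 351 to 749 genes with single libraries left out (348 with all), and 70 to 199 of the 200 stayed among the first 200. Other pseudocounts or scalings kept 173 to 191 of them. Where only 1 library of a group was left, it was assumed to vary like the other groups. The cause of these changes was not tested. Same-numbered libraries were not paired by the labels, and their deviations correlated by 0.0485 on average (range −0.0875 to 0.228 over 15 pairs of groups), so the replicate block rests on a shared number only. Depth limits the weakest genes: 16 of the 200 had both stage 5 libraries at or under 3 counts. Floors cover counting error only, and standard errors also the spread between libraries.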
